A study of Mus musculus with 6 samples.

Results

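Families of interferon-stimulated antiviral genes were followed in OT-I cells, CD8 T cells of mouse with a transgenic receptor for an ovalbumin peptide. Naive cells enriched from spleen and lymph nodes came from 2 genotypes, wild-type (WT) and Themis conditional knockout (cKO). Themis is a T-lineage protein that acts close to the T-cell receptor. The labels do not name the Cre line that deletes the gene, the age of the mice or how the cells were enriched. Both genotypes were kept for 3 days in IL-2 at 1 µg/ml, and 3 RNA libraries per genotype were sequenced. Nothing in the labels ties a library to its own mouse or culture dish, so every p-value reflects the scatter of these libraries alone, and that scatter may be technical. Members were chosen by gene symbol: the OAS, GBP, PARP, SLFN, TRIM, LY6, IFI, DEAD/DEAH helicase and related families, without the IFIT and Ifi200 families, Ifih1 and Irf4. Of the 854 genes in the deposited table, 59 were members. In the RefSeq annotation of GRCm38.p6, 244 protein-coding genes match the same symbols, and those outside the table were not analysed here.

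Type I interferon binds a receptor whose kinases switch on a transcription complex that contains STAT2 and IRF9 and binds interferon-stimulated response elements in promoters. Type II interferon works through gamma-activated sites. The genes switched on include sensors of foreign RNA, enzymes that degrade it, GTPases, ubiquitin and ADP-ribose transferases, and brakes on the pathway itself. In T cells the same genes respond to interferon in the surroundings as well as to interferon that the cells make.

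RNA of nearly all members was lower in cKO. Of the 58 members with enough counts to test, 55 were lower and 3 were higher (quasi-likelihood test of edgeR, p under 0.05 after Benjamini-Hochberg adjustment). The table holds only genes that differ: each log2 ratio of the genotypes' mean counts is at most -0.94 or at least 1.06, and 100% of its 796 tested genes passed that threshold. Passing the test is therefore no result about the members. Of all tested genes 75.9% were called lower and 24.1% higher, against 94.8% of members lower. The median log2 fold change was -1.74 over the tested members and -1.35 over all 796. Among genes that were lower, the medians were closer, at -1.77 for 55 members and -1.62 for 549 other genes. A fall of more than 4-fold was found for 23 members (39.7% of 58) and for 207 of all 796 tested genes (26.0%). The 2 genotypes did not overlap for any of the 58 tested members, nor for 99.5% of all tested genes. In bulk RNA, fewer cells that express a gene and less RNA per cell cannot be told apart.

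Themis, the targeted gene, had 5521, 5784 and 4964 scaled counts in WT and 977, 1227 and 1215 in cKO, a log2 fold change of -2.25 (standard error 0.11, edgeR adjusted p = 5.06e-08). Counts here are scaled within each genotype, with both genotypes taken at equal depth, because the libraries' totals over all genes are not known here. Scalings that centre the table on itself (TMM, median-of-ratios factors over all 6 libraries, and DESeq2's own size factors) raise the log2 values by a median of 1.25 to 1.29. They assume that most genes do not differ, while all 796 tested genes were called at equal depth. Under these table-centred scalings 34 of the 55 lower members stayed lower and called with each (27.4%, 28.4% and 26.0% of all tested genes were called lower with the 3 scalings), 7 kept their sign but were no longer called, and 14 turned sign with at least 1 of them (11 with all 3). Each family is given below with those counts. The share of all tested genes called higher with these scalings was not worked out, so a call of higher there is no result about a gene.

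**Figure D1:**
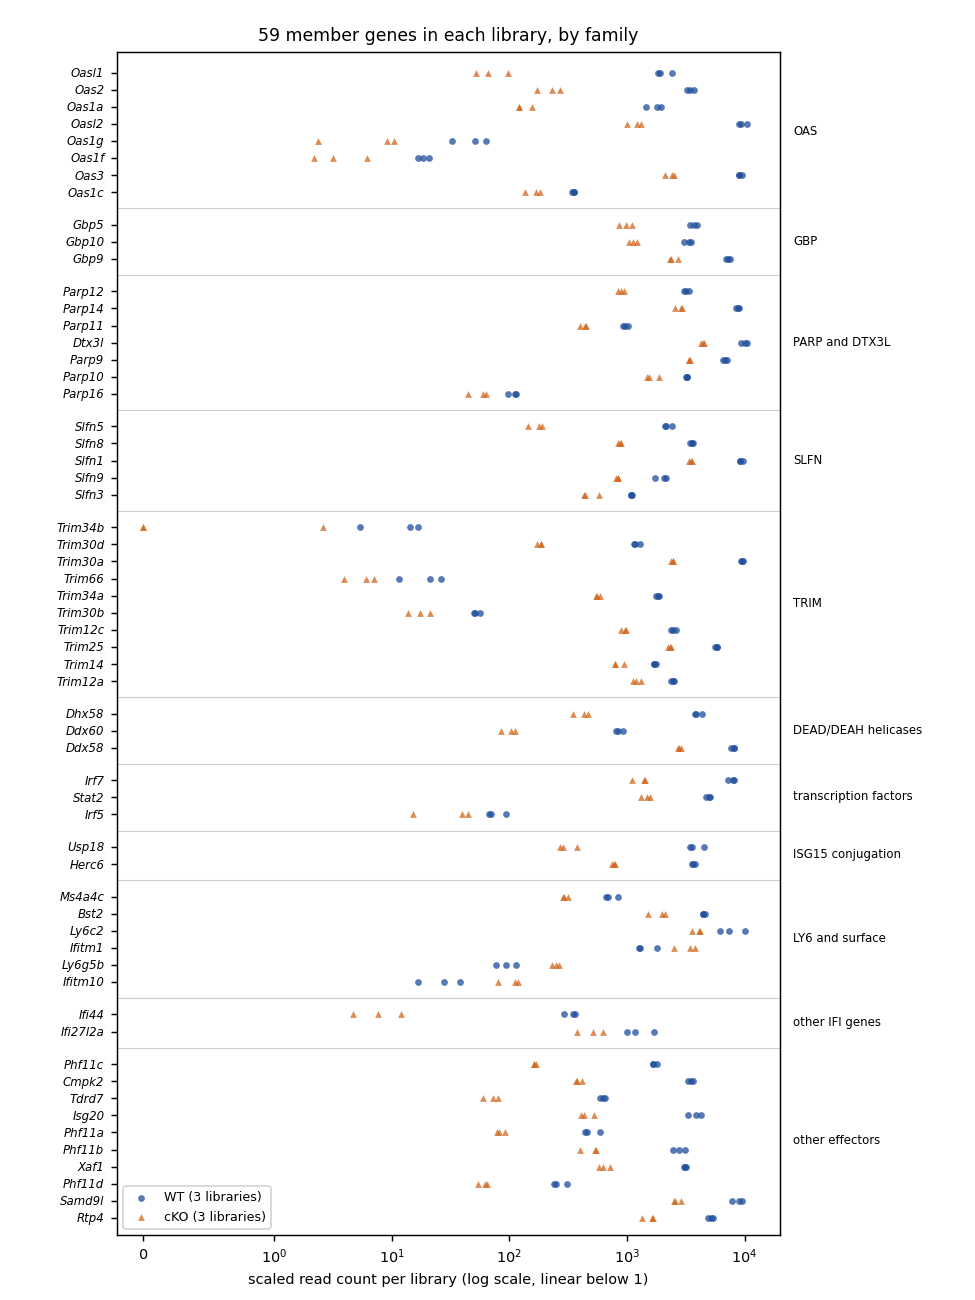
Scaled read counts of the 59 members (x axis, log scale, linear below 1) in the 3 WT libraries (circles) and 3 cKO libraries (triangles), grouped by family. The genotypes are apart for every gene drawn, and only Ifitm1, Ly6g5b and Ifitm10 have the cKO libraries on the right.

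Many of the lower members held a promoter motif of interferon-stimulated genes. The choice by symbol did not use the motif itself, but it took families known as interferon-stimulated. The share below is therefore a trait of the list and no independent result about the genotypes. RefSeq promoters of GRCm38.p6, from 250 bases before to 50 bases after a start site, were available for 48 of the 59 members. They were searched on both strands for GAAA, any 2 bases and GAAA, the core of the interferon-stimulated response element, and for TTC, any 3 bases and GAA, the core of the gamma-activated site. Matches of the 2 motifs, and of 1 motif with itself, may overlap. The response element core was found in 21 of the 44 lower members with a promoter (47.7%). Some of these promoters are near copies of each other, as in Phf11a and Phf11b or Trim30a and Trim30d, so the 21 are not separate cases. It was found in 44 of 418 other lower genes of the table (10.5%), in 6 of 141 other higher genes (4.26%) and in 1079 of 27025 genes with a promoter in all (3.99%). Counted per promoter, the share was 44.2% for the lower members and 3.44% overall. The gamma-activated core was held by 6 of the 44 (13.6%), near the 9.55% of all genes. None of the 3 higher members held either core. A match is a description of these letters and not of a bound site.

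**Figure D2:**
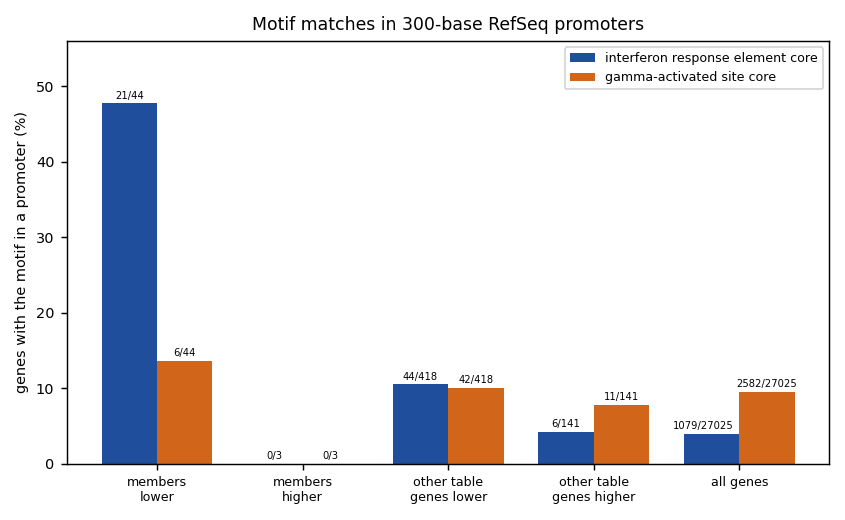
Percentage of genes (y axis) with a response element core (left bars) or a gamma-activated core (right bars) in a RefSeq promoter, with the counts above each bar. The lower members stand at 47.7% for the response element core and at 13.6% for the gamma-activated core, against 3.99% and 9.55% of all genes.

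The promoters below show where the response element cores lie, in capitals, in a lower helicase gene with 2 separate cores, a pair of Oas1 paralogs, a TRIM and a SLFN gene, and Ifitm1, which was higher and has none. All are from RefSeq on GRCm38.p6, 5′ to 3′ on the strand of the gene; a core on the opposite strand reads TTTC, 2 bases and TTTC. Gamma-activated cores are left in lower case; of the 6 promoters, that of Oas1a holds 1.
Ddx60 (chr8:61927837-61928136, plus strand): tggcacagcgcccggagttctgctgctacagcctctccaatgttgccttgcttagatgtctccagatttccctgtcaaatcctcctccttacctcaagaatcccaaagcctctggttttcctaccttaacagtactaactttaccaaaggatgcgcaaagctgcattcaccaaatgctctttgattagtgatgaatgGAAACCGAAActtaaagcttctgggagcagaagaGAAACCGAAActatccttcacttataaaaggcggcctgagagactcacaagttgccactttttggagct
Oas1a (chr5:120907476-120907775, minus strand): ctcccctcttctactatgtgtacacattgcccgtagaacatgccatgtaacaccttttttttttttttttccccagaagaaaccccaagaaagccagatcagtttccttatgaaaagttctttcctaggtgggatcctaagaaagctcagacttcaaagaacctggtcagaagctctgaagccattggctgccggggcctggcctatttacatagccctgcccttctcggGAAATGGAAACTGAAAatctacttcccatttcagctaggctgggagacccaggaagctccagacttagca
Oas1g (chr5:120887564-120887863, minus strand): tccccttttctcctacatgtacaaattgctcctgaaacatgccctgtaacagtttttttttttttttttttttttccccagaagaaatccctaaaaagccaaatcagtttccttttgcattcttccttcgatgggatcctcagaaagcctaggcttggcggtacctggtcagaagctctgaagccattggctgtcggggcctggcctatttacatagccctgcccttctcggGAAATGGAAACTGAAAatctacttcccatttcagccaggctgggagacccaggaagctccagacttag
Trim30d (chr7:104507800-104508099, minus strand): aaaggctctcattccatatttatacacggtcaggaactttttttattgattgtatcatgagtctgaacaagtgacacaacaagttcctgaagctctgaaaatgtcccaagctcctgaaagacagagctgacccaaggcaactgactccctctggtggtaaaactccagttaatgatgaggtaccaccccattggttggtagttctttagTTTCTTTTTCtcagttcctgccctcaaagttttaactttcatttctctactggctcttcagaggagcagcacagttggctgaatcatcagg
Slfn9 (chr11:82991781-82992080, minus strand): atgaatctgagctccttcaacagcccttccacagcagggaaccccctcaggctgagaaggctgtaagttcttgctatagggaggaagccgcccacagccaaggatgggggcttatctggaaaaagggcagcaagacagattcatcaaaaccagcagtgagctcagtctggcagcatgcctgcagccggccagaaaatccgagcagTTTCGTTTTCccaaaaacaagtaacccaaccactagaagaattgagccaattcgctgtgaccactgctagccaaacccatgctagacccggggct
Ifitm1 (chr7:140967826-140968125, plus strand): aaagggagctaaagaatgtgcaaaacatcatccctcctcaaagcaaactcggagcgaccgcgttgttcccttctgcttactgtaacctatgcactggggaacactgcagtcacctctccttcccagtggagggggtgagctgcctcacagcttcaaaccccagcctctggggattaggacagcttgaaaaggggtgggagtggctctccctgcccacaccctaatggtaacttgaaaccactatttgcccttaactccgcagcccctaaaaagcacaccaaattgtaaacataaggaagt

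In Ddx60 the cores began 53 and 19 bases before the start site and both read GAAACCGAAA. In Oas1a and Oas1g the same 16 letters, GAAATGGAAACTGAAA, hold 2 overlapping matches. The matches began 20 and 14 bases before the start in Oas1a and 18 and 12 bases before it in Oas1g. In Trim30d and Slfn9 the core stood on the opposite strand, its leftmost base 41 and 45 bases before the start. The lower members with a core had a median log2 fold change of -1.96 (n = 21) and those with a promoter but no core -1.84 (n = 23). Oasl1 and Ifi44, which had the lowest log2 values of all members, had no match in the promoters searched. Only a gap of 2 bases between the GAAA repeats was searched for. A promoter without a match may therefore hold repeats with another gap, as that of Ifi44 does on the opposite strand (tttcagttttcgtttc).

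The transcription factors of the pathway were lower. Irf7, the factor that drives most type I interferon genes, had 7163, 8030.2 and 8142 scaled counts in WT replicates 1 to 3 and 1417, 1407 and 1101 in cKO. All 3 cKO libraries were far below the WT libraries, 5.94-fold on average (log2 fold change -2.57, standard error 0.11, adjusted p = 2.59e-08, edgeR). Stat2, a subunit of the complex that type I interferon activates, had 4711, 4969 and 5094 in WT and 1558, 1489.5 and 1327 in cKO (log2 fold change -1.76, standard error 0.088, adjusted p = 5.51e-08). Irf5, a factor of Toll-like receptor signalling best known from myeloid and B cells, was low, with 66.8, 70.1 and 94.7 in WT and 15.1, 39.4 and 44.6 in cKO, and its cKO libraries spread about 3-fold. Its log2 fold change was -1.23 (standard error 0.35, adjusted p = 0.00617), and it turned sign under the table-centred scalings while Irf7 and Stat2 stayed lower. Adjusting over 16996 genes, the number implied by the ranks behind the deposited q-values, left 53 members called lower (70.1% of all tested genes were) and took away the call of Irf5 (adjusted p = 0.132). Of 16 genes listed for interferon receptors and signalling, Stat2 and Usp18 were in the table, and the others were not analysed here.

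The 3 helicase members have known or proposed roles in sensing foreign RNA, and all were lower under each scaling. Dhx58 encodes LGP2, which tunes the sensor MDA5. It had 3849.7, 3803 and 4307 scaled counts in WT and 468, 429.9 and 348 in cKO, 9.59-fold lower (log2 fold change -3.26, standard error 0.13, adjusted p = 1.65e-08, edgeR). Ddx60 had 810.4, 932 and 832 in WT and 85.6, 103 and 111 in cKO (log2 fold change -3.10, standard error 0.15, adjusted p = 4.29e-08). Ddx58 encodes RIG-I, the sensor of RNA with a triphosphate end. It had 8061, 8074 and 7676 in WT and 2864, 2713 and 2758 in cKO, a smaller change of 2.86-fold (log2 fold change -1.51, standard error 0.066, adjusted p = 2.62e-08). Ddx58 thus changed least of the helicases on the log2 scale, by far more than the standard errors. Dhx58 shares 2.90% of its 50-base stretches with its antisense gene Dhx58os, and Slfn5, described below, 7.38% with Slfn5os; whether the counting used strand is not stated.

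The oligoadenylate synthetases make the messenger that activates RNase L, which cuts RNA. All 8 members of the OAS family were lower, with a median log2 fold change of -2.91 and a range from -4.84 to -1.12. Oas2 had 3256, 3439 and 3742 scaled counts in WT and 232, 273 and 174 in cKO, 15.4-fold lower (log2 fold change -3.94, standard error 0.16, adjusted p = 2.10e-08, edgeR). Oasl2, a synthetase with ubiquitin-like domains, had 8917, 9367 and 10407 in WT and 1316, 1214 and 1002 in cKO (log2 fold change -3.02, standard error 0.11, adjusted p = 1.29e-08). Oas3 fell less, from 8978, 8916 and 9417 to 2516, 2429 and 2098 (log2 fold change -1.96, standard error 0.084, adjusted p = 2.44e-08). In each of these genes the cKO libraries lay far below the WT libraries.

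Oasl1, which lacks synthetase activity and in mouse limits translation of Irf7 RNA, had the lowest log2 fold change of the family, -4.84 (standard error 0.22), or 28.6-fold. The values of Oasl1, Oas1g and Oas1c in each library are given because of their size, after they were seen. Oasl1 had 1844, 1921 and 2433 scaled counts in WT and 66.5, 97.4 and 52.5 in cKO (adjusted p = 3.54e-08, edgeR), so the cKO libraries also differed among themselves. Oas1a had 1816, 1462 and 1954 in WT and 158, 121 and 122 in cKO (log2 fold change -3.71, standard error 0.16, adjusted p = 2.81e-08). Oas1a and Oas1g are close copies: 57.6% of the 50-base stretches of Oas1a transcripts and 45.7% of those of Oas1g occur in another gene (GENCODE M21). Their reads may have been split in counting, and the 6.96-fold change of Oas1g, from 51.5, 63.6 and 32.7 to 10.5, 9.12 and 2.36, is uncertain on its own. Oas1f was near the limit of counting, with 56.4 counts summed over WT and 11.5 over cKO. Oas1c stood apart from its neighbours, with 356, 339 and 356 in WT, 168, 181 and 135 in cKO and a log2 fold change of -1.12 (standard error 0.15). Its promoter also holds 2 overlapping cores. With table-centred scaling Oas1c turned sign, Oas1f lost its call, and the other 6 stayed lower.

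The ISG15 pathway attaches a ubiquitin-like tag to proteins, and its members were lower under each scaling. Usp18 removes the tag and also blocks signalling at the type I interferon receptor. It had 3599, 3426 and 4508 scaled counts in WT and 289, 374 and 270.5 in cKO, 12.3-fold lower (log2 fold change -3.63, standard error 0.16, adjusted p = 2.74e-08, edgeR). Herc6, the main ligase for ISG15 in mouse, had 3567, 3762 and 3628 in WT and 789, 779 and 745 in cKO (log2 fold change -2.24, standard error 0.084, adjusted p = 1.29e-08). The libraries of each genotype lay close together for Herc6, and WT replicate 3 was the highest for Usp18.

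**Figure D3:**
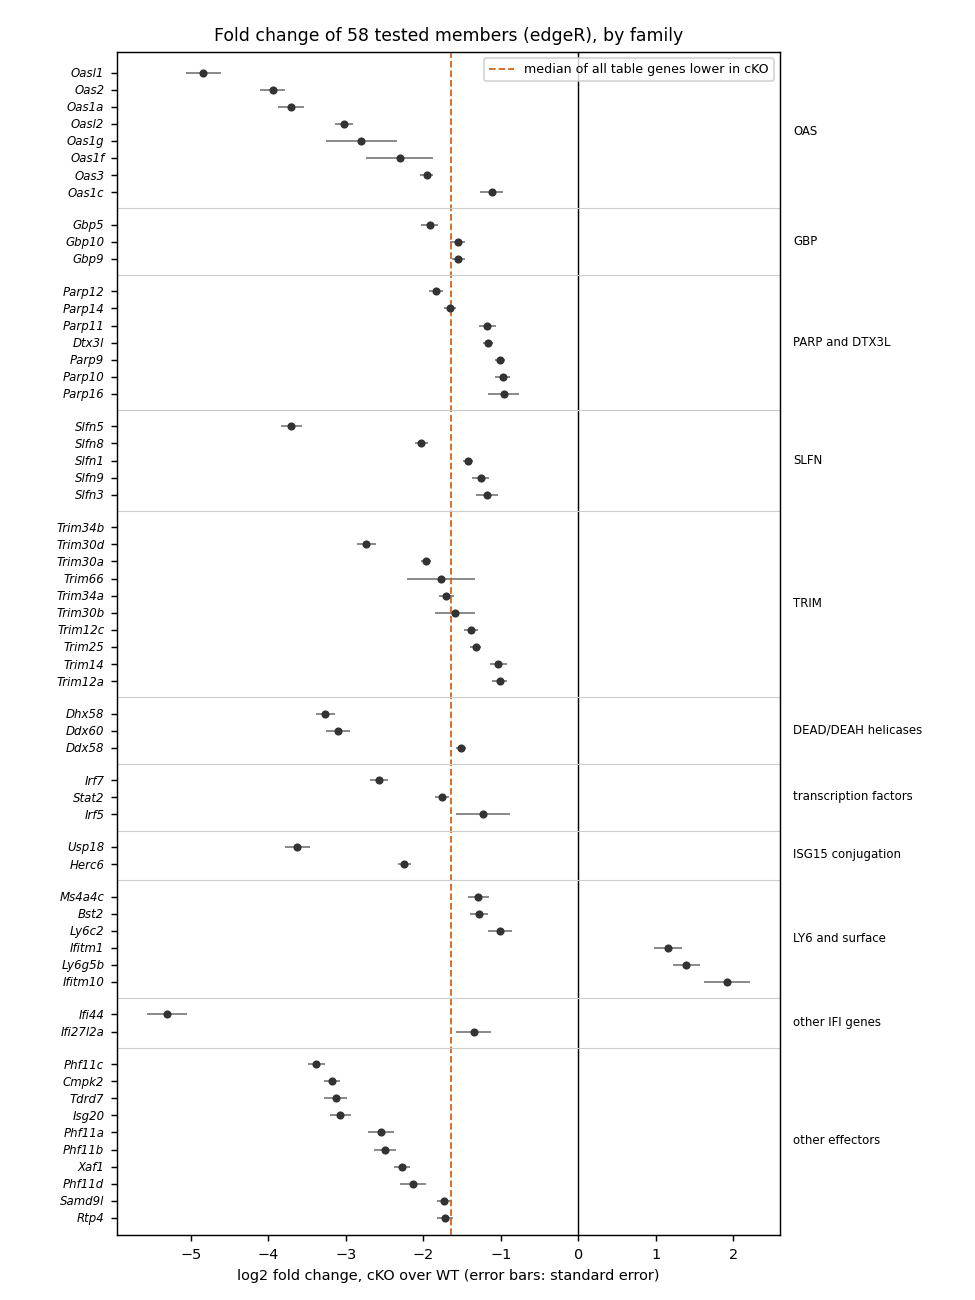
Log2 fold change of cKO over WT (x axis, points with standard errors) for the 58 tested members by family; Trim34b was too low to test. The dashed line marks the median of the 604 lower genes of the table, -1.64, and members run from -5.30 for Ifi44 to 1.91 for Ifitm10.

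Members with effector roles outside the large families were all lower and stayed so under each scaling, 10 of 10, with a median log2 fold change of -2.52. Cmpk2, a nucleotide kinase of mitochondria, had 3323, 3669 and 3516 scaled counts in WT and 417, 366 and 377 in cKO, 9.05-fold lower (log2 fold change -3.18, standard error 0.10, adjusted p = 7.32e-09, edgeR). Isg20, an exonuclease that degrades RNA, had 3303, 3838 and 4292 in WT and 523, 432 and 408 in cKO (log2 fold change -3.07, standard error 0.14, adjusted p = 2.81e-08). Xaf1, a promoter of apoptosis that binds XIAP, had 3129, 3074 and 3185 in WT and 725, 631 and 579.9 in cKO (log2 fold change -2.28, standard error 0.11, adjusted p = 3.54e-08). The WT libraries kept to narrow bands in Cmpk2 and Xaf1 and spread more in Isg20. Tdrd7, a tudor domain protein, had a log2 fold change of -3.13, Samd9l, a restrictor of poxviruses and of cell growth, -1.73, and Rtp4, a chaperone of membrane receptors, -1.72, with standard errors of 0.15, 0.091 and 0.10.

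The 4 Phf11 genes, which encode PHD finger proteins, form 1 cluster on chromosome 14 and fell together. Phf11c had 1660.2, 1680.5 and 1797 scaled counts in WT and 163, 168 and 162 in cKO, 10.4-fold lower (log2 fold change -3.38, standard error 0.11, adjusted p = 7.32e-09, edgeR). Phf11a, Phf11b and Phf11d had log2 fold changes of -2.55, -2.49 and -2.13. Phf11b and Phf11a share 47.0% and 35.2% of their 50-base stretches with other genes, so their values are less certain one by one than those of Phf11c (11.8%) and Phf11d (8.09%).

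Ifi44, a cytoplasmic protein of little known function that interferon induces, had the lowest log2 fold change of all members. It had 365, 290.3 and 347 scaled counts in WT and 12.04, 4.73 and 7.64 in cKO (log2 fold change -5.30, standard error 0.26, adjusted p = 4.75e-08, edgeR). Summed over each genotype, that is 1002 against 24 deposited counts, a ratio of 41.8 (95% exact Clopper-Pearson interval of counting error, 27.9 to 65.5). Ifi27l2a, a small protein induced by interferon, had 1176, 992 and 1704 in WT and 518, 624 and 377 in cKO, with a log2 fold change of -1.35 (standard error 0.23, adjusted p = 0.000281). Its libraries were uneven in both genotypes, and its call ended under the table-centred scalings.

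The Schlafen genes, which act on cell growth and on virus replication, were all lower, 5 of 5, with log2 fold changes from -3.70 to -1.17. Slfn5 stood apart, with 2107, 2428 and 2140.0 scaled counts in WT and 145, 178 and 189 in cKO, 13-fold lower (log2 fold change -3.70, standard error 0.14, adjusted p = 1.20e-08, edgeR). Slfn8 had 3547, 3660.0 and 3416 in WT and 844, 888 and 875 in cKO (log2 fold change -2.03, standard error 0.084, adjusted p = 2.10e-08), and Slfn1 had 9058, 9181 and 9675 and 3353, 3508 and 3566 (log2 fold change -1.42, standard error 0.065, adjusted p = 3.54e-08). Slfn9 had 2155, 2056 and 1747 in WT and 841, 840.0 and 808 in cKO (log2 fold change -1.26, standard error 0.11, adjusted p = 2.45e-06), and Slfn3 had a log2 fold change of -1.17. Slfn5 and Slfn8 stayed lower under the table-centred scalings; on that scale Slfn9 and Slfn3 turned sign (Slfn9 not with median-of-ratios factors) and Slfn1 lost its call. Of the 50-base stretches of Slfn5, Slfn8, Slfn9 and Slfn3, 11.1% to 16.0% occur in other genes, against 0.606% for Slfn1.

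The 3 guanylate-binding proteins, GTPases that attack the vacuoles of pathogens, were lower and stayed so under each scaling. Gbp5 had 3443, 3742 and 3907 scaled counts in WT and 1099, 981 and 863 in cKO (log2 fold change -1.91, standard error 0.11, adjusted p = 1.28e-07, edgeR). Gbp9 had 7232, 6989 and 7529.6 in WT and 2733, 2339.5 and 2349.5 in cKO (log2 fold change -1.55, standard error 0.083, adjusted p = 8.80e-08), and Gbp10 had 3375, 3063 and 3532 and 1129.6, 1216 and 1050.0 (log2 fold change -1.55, standard error 0.097, adjusted p = 2.53e-07). The changes of Gbp9 and Gbp10 were nearly equal, while Gbp10 shares 84.1% of its 50-base stretches with other genes, mostly Gbp6, and cannot be read alone. None of the 3 passed a q-value of 0.05 in the authors' deposited table, where they had 0.0883, 0.0885 and 0.413 in the same order. Of the immunity-related GTPases (Irgm, Igtp, Iigp and Tgtp) no gene was in the table, and none was analysed here.

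The ADP-ribose transferases changed least among the families whose members were all lower and numbered 3 or more. All 7 were lower, with a median log2 fold change of -1.17, but 5 turned sign under the table-centred scalings, 2 of which (Parp9 and Parp10) were then called higher with all 3, and only Parp12 and Parp14 stayed lower. Parp12 had 3047, 3181 and 3364 scaled counts in WT and 943, 888 and 847 in cKO (log2 fold change -1.84, standard error 0.091, adjusted p = 5.06e-08, edgeR), and Parp14 had 8855, 8929 and 8411 and 2937, 2858 and 2546 (log2 fold change -1.65, standard error 0.077, adjusted p = 3.54e-08). Parp9 and the ubiquitin ligase Dtx3l, which work as a pair, overlap at their ends on chromosome 16, so a part of their reads (7.71% and 8.09% of their 50-base stretches are shared) may be split. Dtx3l had 10019, 10388 and 9337 in WT and 4510.4, 4271 and 4467 in cKO (log2 fold change -1.17, standard error 0.067, adjusted p = 1.36e-07), and Parp9 had 7067, 6755 and 6562 and 3418, 3339 and 3388 (log2 fold change -1.01, standard error 0.066, adjusted p = 3.51e-07). For both, the libraries of a genotype were close together. Parp11, Parp10 and Parp16 had log2 fold changes of -1.17, -0.98 and -0.96. Parp16, a transferase of the endoplasmic reticulum, is matched by its name and is not known as an interferon target. Parp9, Parp10, Parp11 and Dtx3l had deposited q-values of 0.0523 to 0.191 in the authors' deposited table, while Parp16 had 9.72e-06 there.

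The tripartite motif (TRIM) members, mostly ubiquitin ligases, were lower in 9 of 9 tested genes, with log2 fold changes from -2.73 to -1.02. Trim30a had 9529, 9258 and 9657 scaled counts in WT and 2465, 2351 and 2470.3 in cKO (log2 fold change -1.96, standard error 0.065, adjusted p = 7.32e-09, edgeR), and Trim30d had 1180.3, 1158 and 1299 and 186, 173 and 187 (log2 fold change -2.73, standard error 0.12, adjusted p = 2.59e-08). Trim34a had 1820.4, 1881 and 1778 in WT and 586, 555 and 541 in cKO (log2 fold change -1.70, standard error 0.097, adjusted p = 1.24e-07), though 59.7% of its 50-base stretches are shared, mostly with Trim34b. Trim25, a ligase that acts on RIG-I, had 5866, 5876 and 5559.7 in WT and 2214, 2358 and 2331 in cKO (log2 fold change -1.33, standard error 0.071, adjusted p = 8.77e-08). The replicates of these 4 genes were tight.

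Trim30a, Trim30d and Trim34a stayed lower under the table-centred scalings. Trim12a (-1.02) and Trim14 (-1.03), an adaptor of the RIG-I pathway, turned sign on that scale, Trim12a called higher with all 3 scalings and Trim14 with DESeq2's own size factors, and the calls of Trim25, Trim12c (-1.39), Trim30b (-1.59) and Trim66 (-1.77) ended. Trim12a and Trim12c are relatives of the retroviral restriction factor TRIM5. Trim12c shares 33.7% of its 50-base stretches with other genes, mostly Trim5, and Trim14 33.9%, mostly with Nans, so both values are uncertain. Trim66, a chromatin reader not known as an interferon target, rested on 59 counts in WT and 17 in cKO, and lost its call with adjustment over 16996 genes (adjusted p = 0.0627). Trim34b was too low to test, with 36.5 estimated counts summed over WT and 2.59 over cKO, and 2 cKO libraries at 0. As 36 against 3 whole counts the ratio is 12 (95% exact Clopper-Pearson interval of counting error, 3.79 to 60.9).

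The surface proteins, pooled here from the LY6, BST2, MS4A4 and IFITM names, were the one group that split. In it 3 members were lower and 3 higher. Bst2, the tetherin that holds budding virus at the cell surface, had 4474, 4476 and 4642 scaled counts in WT and 1969, 2108 and 1509 in cKO (log2 fold change -1.28, standard error 0.12, adjusted p = 4.42e-06, edgeR). Ms4a4c, a membrane-spanning protein, had 692, 667 and 833 in WT and 289.9, 318 and 288 in cKO (log2 fold change -1.29, standard error 0.13, adjusted p = 9.56e-06). Ly6c2, which encodes a Ly6C antigen that memory and effector CD8 T cells carry, had 7413, 6235 and 10169.7 in WT and 3591, 4194 and 4076 in cKO (log2 fold change -1.01, standard error 0.16, adjusted p = 0.000159). WT replicate 3 was the highest library for all 3 genes. Ly6c2 turned sign under all 3 table-centred scalings. Bst2 and Ms4a4c turned sign under TMM and DESeq2's own size factors, and with median-of-ratios factors kept their sign without a call. Ly6c2 shares 14.5% of its 50-base stretches with other genes, mostly its near copy Ly6c1.

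The higher members were Ifitm1, Ly6g5b and Ifitm10, and they stayed higher under each scaling. Ly6g5b and Ifitm10 are matched by their names only, and whether interferon induces them was not checked here. Ifitm1, a protein that hinders the entry of enveloped viruses, had 1811, 1303 and 1259 scaled counts in WT and 2489.9, 3808 and 3411 in cKO, 2.22-fold higher (log2 fold change 1.15, standard error 0.18, adjusted p = 0.000168, edgeR). Ly6g5b, a LY6-domain gene of the major histocompatibility region on chromosome 17, had 114, 94.4 and 76.8 in WT and 251, 267 and 233 in cKO, 2.63-fold higher (adjusted p = 3.50e-05). Ifitm10 was low in WT, with 38.1, 16.7 and 27.8, and had 119.8, 80.7 and 111 in cKO, 3.77-fold higher (log2 fold change 1.91, standard error 0.30, adjusted p = 0.000162). The lowest cKO library was above the highest WT library for each of the 3 genes. The authors' deposited table also has all 3 higher, with q-values of 9.14e-09, 0.00253 and 0.000196.

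Ifitm1 (chromosome 7, 140967429 to 140969827 of GRCm38.p6) lies near Irf7 (141263183 to 141266499), and the 2 genes went opposite ways. Markers of NK and B cells were higher too. The table held 5 of 8 NK cell markers, each of them higher, with summed scaled counts of 423 to 703 in WT and 1150.3 to 2054 in cKO. It held 3 of 12 B cell markers, also higher, at 60.0 to 102 in WT and 118 to 308 in cKO. Their part in the 3 higher members was not tested.

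Several members form gene clusters. With neighbours at most 500000 bases apart, 33 of the 59 members fall into 9 groups on GRCm38.p6. Members were chosen by family name, so this grouping is a trait of the list. The share of other genes in such groups was not worked out. The pairs Tdrd7 with Trim14 and Ifitm1 with Irf7 join different families, with 10 and 14 other protein-coding genes in their spans. On chromosome 5, Oas2, Oas3, Oas1c, Oas1f, Oas1g and Oas1a lie between 120730333 and 120907544, and Oasl2 and Oasl1 between 114896926 and 114937911. On chromosome 7, Trim34a, Trim12a, Trim34b, Trim12c, Trim30b, Trim30a and Trim30d lie between 104244448 and 104507853. The Schlafen genes Slfn5, Slfn9, Slfn8, Slfn1 and Slfn3 lie on chromosome 11 between 82951349 and 83215154, and the 4 Phf11 genes on chromosome 14 between 59276913 and 59393512. Parp14, Dtx3l and Parp9 lie on chromosome 16 between 35831892 and 35972621.

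In some clusters the neighbours differed in the size of their change. In the larger OAS cluster the log2 values ran from -3.94 for Oas2 to -1.12 for Oas1c, and in the Schlafen cluster from -3.70 for Slfn5 to -1.17 for Slfn3. The Phf11 cluster spanned a narrower range, -3.38 to -2.13, and the group on chromosome 16 -1.65 to -1.01. Gbp9 and Gbp10 both stood at -1.55. In the Phf11 cluster and in the group of Parp14, Dtx3l and Parp9, every protein-coding gene of the span was a member.

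The libraries of a genotype differed a little in the members as a set. In WT, replicate 3 had the highest scaled count for 31 of the 55 lower members (56.4%) and for 42.3% of 549 other lower genes. In cKO, replicate 3 had the lowest value for 34 of the 55 members (61.8%), against 32.1% of the other genes. The median deviation of the members from the genotype mean was 0.040 (log2) in WT replicate 3 and -0.090 in cKO replicate 3, against 0.032 and 0 for the other genes. With the counts as deposited, without scaling, the cKO replicate 3 share was 69.1% for members and 33.9% for other genes. These shifts are small beside the difference between the genotypes. Leaving out any 1 library changed no call among the tested members.

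**Figure D4:**
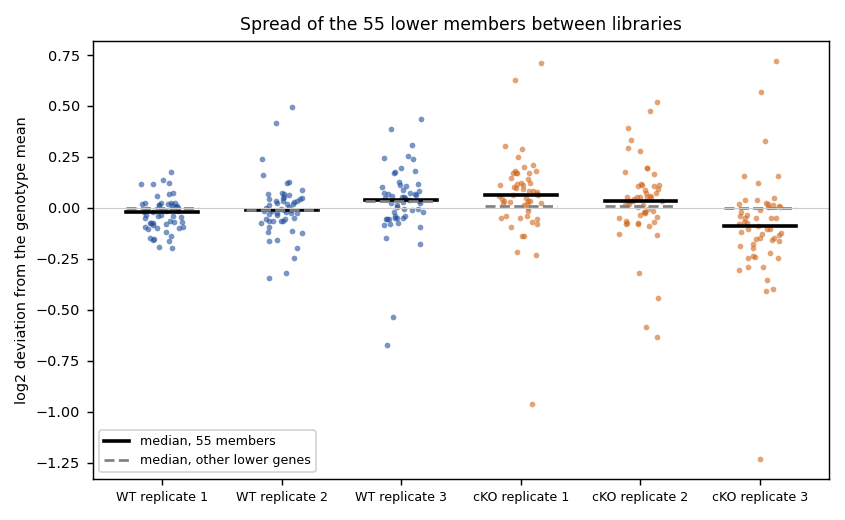
Log2 deviation of each of the 55 lower members from its genotype mean (y axis) in each library (points), with the median of the members (solid line) and of the 549 other lower genes (dashed line). In cKO replicate 3 the members' median is -0.090 while the other genes' median is 0.

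The table held 17 of 32 other listed interferon-induced genes. Each was lower, where 75.9% of all tested genes were, and their median log2 fold change of -1.66 was close to the -1.64 of all lower genes. They include Eif2ak2 (-1.45), the kinase PKR, and Rnf213 (-2.13), a large ubiquitin ligase. With all 3 table-centred scalings 11 of the 17 were called lower, Rnf213 among them, and 5 turned sign (Nt5c3, Pnpt1, Lgals3bp, Lgals9 and Sp140). Of those 5, Nt5c3, Pnpt1 and Lgals3bp were then called higher, and Eif2ak2 kept its sign without a call. Of 17 listed antigen presentation genes that interferon induces, H2-Q6 (-1.37) and Cd274 (-0.96), the ligand PD-L1, were in the table and both were lower. With table-centred scaling Cd274 was called higher and H2-Q6 lost its call. The other listed genes were not analysed here. Of 16 markers of plasmacytoid dendritic cells, which respond to virus with type I interferon, 5 were in the table: Bst2, Ly6c2, Tlr7 (-2.24) and Cox6a2 (-1.81) were lower and Ccr9 (2.95) was higher; with table-centred scaling Tlr7 and Ccr9 kept their calls. T cells also express Bst2, Ly6c2 and Ccr9. Summed over the 5 genes, the scaled counts were 12022 to 16549 in WT and 7360.2 to 8313 in cKO. Most of that sum came from Ly6c2 and Bst2, which are members themselves (WT means of 7939 and 4530, cKO means of 3954 and 1862). Ccr9 had a mean of 230 in WT and 1779 in cKO. The part of plasmacytoid dendritic cells in the members' change was not tested. The table held 2 of 14 markers of myeloid and conventional dendritic cells, Itgax (1.28) and Mpeg1 (-2.91), whose counts summed to 387 to 492 in WT and 164 to 271 in cKO. None of the 10 listed T cell markers was in the table, so the labelled cell type was not checked here.

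The authors' deposited log2 values had the same sign as those at equal depth for all 58 tested members. This holds too for the 14 members that turned sign under table-centred scalings. The deposited values were smaller in size for 55 of the 58. Among the lower members the median ratio of the deposited log2 to the edgeR log2 was 0.809, and it was 0.840 for the other lower genes. For Ifi44 the authors' deposited table gives -4.26 with a q-value of 0.00116, for Oasl1 -4.12 with 1.77e-05, and for Irf7 -2.10 with 0.00719. Its q-values were under 0.05 for 43 of the 59 members, against 67.6% of all 854 genes. They were under 0.05 for 40 of the 55 lower members (72.7%) and for 447 of all 604 lower genes (74.0%), so the shares were close. Counting untested genes too, lower genes under that limit were 55.0% of all 854 genes. Gbp10 had the largest deposited q-value among the members, 0.413, beside an edgeR adjusted p of 2.53e-07. The sources used here do not state the model behind those q-values, and the reason for the gap was not tested.

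**Figure D5:**
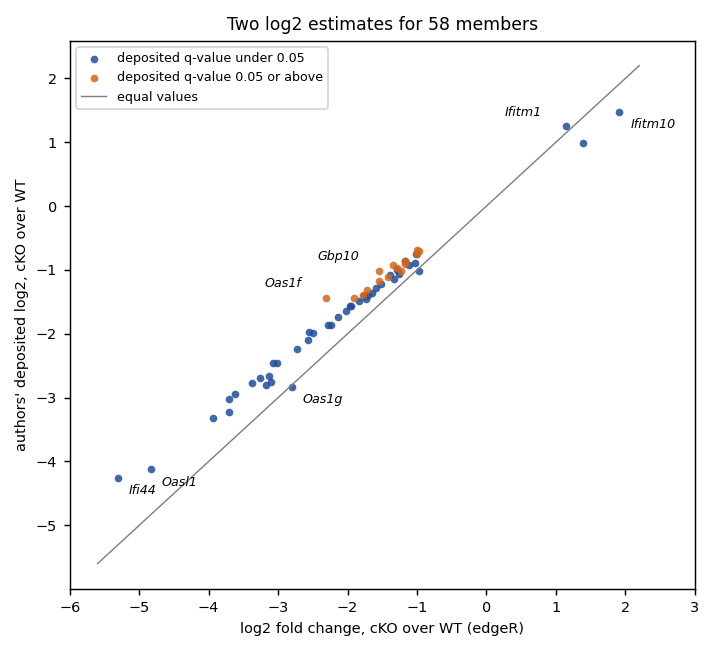
Authors' deposited log2 of cKO over WT (y axis) against the edgeR log2 fold change (x axis) for the 58 tested members, coloured by whether the deposited q-value was under 0.05. Points of lower members sit mostly above the line of equal values, with a median ratio of 0.809.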

How the data were processed

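The 6 libraries were grouped by the genotype in their titles. The authors deposited 1 table with 1 estimated count (expected count) of reads for each gene and library, not normalized; 66.1% of these values are whole. It also holds, per the file headers, the authors' log2 of knockout over wild-type. Per the file headers, each gene has the authors' p-value and their q-value. The submitters' processing notes name GRCm38.p6, RSEM 1.2.12, HISAT2 2.0.4, DESeq2 1.4.5 and Bowtie2 2.2.5, with no role. The sources used here do not say how the genes of the table were chosen. Summed over the table, WT libraries held 946766 to 1054442 counts and cKO libraries 424605 to 437437; these are not depths.

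Counts were rounded and fitted on the whole table with edgeR 4.0.16 (R 4.3.3; genotype as the only term, expression filter with a smallest count of 10, Benjamini-Hochberg over 796 genes). Scaled counts are counts divided by median-of-ratios factors within each genotype (0.944 to 1.04). The standard error was derived from the fold change and the F statistic. Replicate pairs differed by more than sampling noise (6.10 to 18.9 in chi-square divided by its degrees of freedom), so all libraries were kept. Members and lists were chosen with earlier results of these data known. Every member may be named; values in each library are given for up to 4 members of a family with the smallest p (and a mean of at least 10 in the higher genotype), and for the higher members. A planned comparison of protein sequences was not made; shared 50-base stretches of GENCODE M21 transcripts took its place. Alternatives (other scalings, filters, adjustment, DESeq2 1.42.0, a replicate block, single libraries left out) are in the closing section. Tables and plots were made with scipy 1.17.1, matplotlib 3.10.9, numpy 2.4.6 and pandas 2.3.3 under Python 3.11.15.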

Additional observations from a re-analysis of the deposited data

How the results depend on the processing

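Among the choices tried, the depth assumed for the genotypes moved the results most. With TMM, median-of-ratios factors over all 6 libraries, and DESeq2's own size factors, the number of lower members became 34 under each, the number of higher members 6, 6 and 7, and the median log2 fold change -0.45, -0.49 and -0.45. Members that turned sign had these log2 fold changes. With TMM they were Bst2 0.0095, Ms4a4c 0.00095, Ly6c2 0.29, Oas1c 0.18, Dtx3l 0.12, Parp9 0.28, Parp11 0.12, Parp10 0.31, Parp16 0.32, Slfn9 0.031, Slfn3 0.12, Trim12a 0.28, Trim14 0.26, Irf5 0.064. With median-of-ratios factors over all 6 libraries they were Ly6c2 0.25, Oas1c 0.13, Dtx3l 0.083, Parp9 0.24, Parp11 0.076, Parp10 0.27, Parp16 0.28, Slfn3 0.073, Trim12a 0.23, Trim14 0.22, Irf5 0.025. With DESeq2's own size factors they were Bst2 0.010, Ms4a4c 0.0026, Ly6c2 0.29, Oas1c 0.18, Dtx3l 0.13, Parp9 0.29, Parp11 0.12, Parp10 0.32, Parp16 0.33, Slfn9 0.034, Slfn3 0.12, Trim12a 0.28, Trim14 0.26, Irf5 0.071. These scalings assume that most genes do not differ. At equal depth all 796 tested genes were called, 604 lower and 192 higher, so at that depth the table does not meet the assumption. Which scaling is nearer the truth was not tested. Besides the 3 higher members, those called higher were Parp9, Parp10 and Trim12a with all 3, and Trim14 with DESeq2's own size factors. The share of all tested genes called higher with these scalings was not worked out. These calls are therefore no result about the members. Under the 13 other alternatives (no scaling, DESeq2 with the within-genotype factors, 2 other filters, adjustment over 16996 genes, a replicate block, unrounded counts and each library left out), no member turned sign and 750 of 752 calls held; Irf5 and Trim66 lost theirs over 16996 genes. Leaving out 1 library gave 55 to 56 lower and 3 higher members and a median of -1.80 to -1.70. Same-numbered libraries did not deviate together (correlations of -0.074, -0.050 and -0.14 across genes). This shows no pairing by number but cannot exclude one, since a shared batch need not leave a correlation across these genes. With the replicate block 55 members were lower, 3 higher and the median was -1.73. With a C required after the response element core, 37.5% of the 48 members with a promoter matched, against 43.8%, and 0.944% of all genes. Depth over all genes was not used here, so intervals cover counting error only.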
